A study of Mus musculus with 8 samples.

Results

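Cytosolic ribosomal proteins are the protein part of the ribosomes that translate nuclear mRNAs in the cytoplasm. Those of the small subunit (Rps) surround the site where the mRNA is decoded, and those of the large subunit (Rpl) surround the peptidyl transferase centre and the exit tunnel. Many of their mRNAs start with a run of pyrimidines, the 5′ terminal oligopyrimidine (TOP) tract, through which mTOR signalling and the RNA-binding protein Larp1 set their translation. Fetal cardiomyocytes (CMs) still divide, whereas adult CMs (ACMs) grow mainly in size, and both processes need ribosomes.

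The members were all genes whose annotated symbol began with Rpl or Rps followed by a digit, or was Rplp0, Rplp1, Rplp2 or Rpsa. Rpl3, its muscle paralog Rpl3l and the S6 kinases (Rps6k) were left out. Of 16593 genes with a symbol on the array, 64 met this rule, and 57 of them had a bead sequence detected over background on at least 2 of 8 arrays, among 9803 such genes in all. Those 57 were 28 proteins of the body of the large subunit, the stalk proteins Rplp0 and Rplp1, 22 proteins of the small subunit, 4 paralogs (Rpl7l1, Rpl22l1, Rpl36al and Rps27l) and 1 gene that only carries the name, Rps19bp1, whose product binds Rps19. The 7 not kept were Rpl6, Rpl14, Rpl17, Rpl39l, Rplp2, Rps23 and Rps23rg1, which were detected on 1 array (Rps23) or none, so their levels are not described here.

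RNA was hybridized to Illumina MouseRef-8 v2.0 BeadChips, in which each transcript is read as the fluorescence of beads that carry a sequence complementary to it. Hypertrophic ACMs (3 arrays) were from adult CD1 mice and were collected 7 days after an operation that the labels abbreviate as TAC. Embryonic CMs (2 arrays) were from fetal ventricles at E15.5, and normal ACMs (3 arrays) were from ventricles of adult controls, both on a CD1 background. For the normal ACMs the labels name no operation, so the operation and hypertrophy cannot be told apart. Whether samples that share a group are from different animals is not said either, so the p-values rest on a spread between samples that may be technical only.

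Values below are log2 intensities after background correction and quantile normalization between arrays. A log2 difference of 1 is a 2-fold difference. Bead sequences bind with different strength, so only the same bead sequence was compared between groups. Adjusted p-values come from 1 limma fit to all 8 arrays and are corrected over all 9803 genes by the Benjamini-Hochberg method. The threshold was 0.05.

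The share of bead sequences detected was 45.84 to 46.33% in hypertrophic ACMs, 51.61 to 51.63% in embryonic CMs and 41.9 to 43.95% in normal ACMs. The preparations were CM-enriched rather than pure. All 9 cardiomyocyte markers tested were present, with summed signals of 165000 to 169000 in hypertrophic ACMs, 108000 to 123000 in embryonic CMs and 157000 to 174000 in normal ACMs.

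Embryonic CMs carried more mRNA for most cytosolic ribosomal proteins than normal ACMs. Of 57 members, 44 were higher, 0 were lower and 13 did not pass the test, while 26.2% of all genes tested were called higher and 22.7% lower. Among the 44, Rpl22l1 was kept by the detection filter only through the embryonic arrays. The median difference of the members was 1.05 on the log2 scale, a 2.07-fold higher level, with quartiles of 0.59 and 1.46, against a median of 0.01 over all genes. In 46 members every embryonic array lay above every normal array, and in 0 members below, where the shares over all genes were 35% and 31.3%. Rpl22l1 is among these 46 as well. In bulk samples, fewer cells of a type and less RNA per cell cannot be told apart.

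The picture was alike on both embryonic arrays. Measured from the mean of the normal ACMs, the median member stood at -0.03, 0.06 and -0.02 on the hypertrophic arrays, at 1.09 and 0.97 on the embryonic arrays and at 0.08, -0.01 and -0.06 on the normal arrays. The number of members above that mean was 25, 35 and 26 on the hypertrophic arrays, 52 and 57 on the embryonic arrays and 45, 26 and 17 on the normal arrays.

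**Figure D1:**
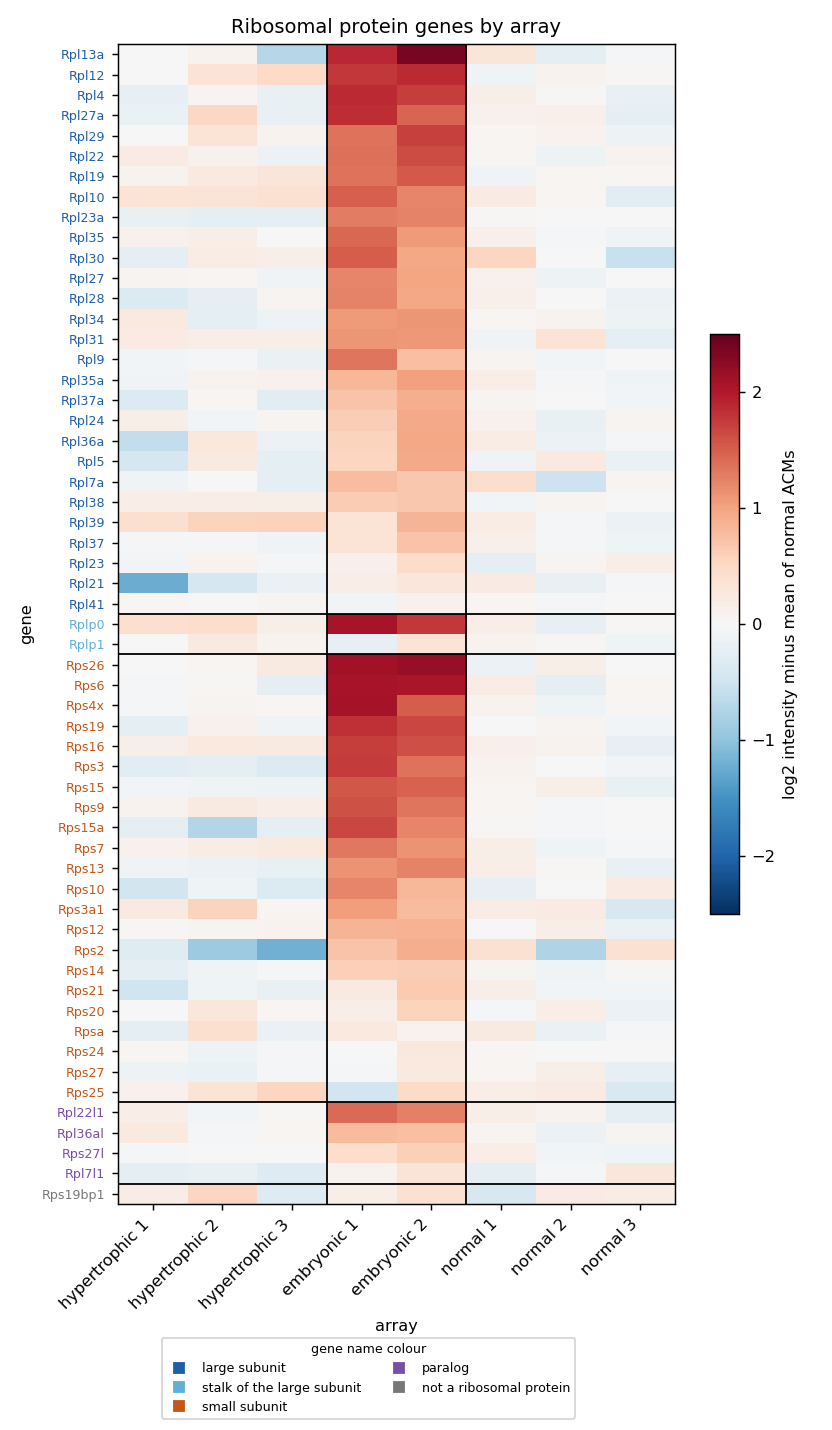
Log2 intensity of the 57 members on each of the 8 arrays, as the difference from the mean of the 3 normal ACM arrays (colour), with rows ordered by subunit and, within it, by the embryonic difference. The 2 embryonic columns are red for most rows, from Rps26 and Rpl13a downwards, and pale for Rpl41, Rps24 and Rps27, while the hypertrophic and normal columns are pale throughout apart from single cells such as Rps2 and Rpl21.

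Both subunits took part. In the body of the large subunit 25 of 28 genes were higher in embryonic CMs (median difference 1.09), and in the small subunit 15 of 22 (median difference 1.10). The largest difference was that of Rps26, a small subunit protein at the mRNA exit channel. Its log2 intensity was 12.04, 12.09 and 12.26 in hypertrophic ACMs, 14.14 and 14.22 in embryonic CMs and 11.90, 12.19 and 12.04 in normal ACMs. Both embryonic arrays lay far above the 6 adult arrays, which overlapped with each other. The difference between embryonic CMs and normal ACMs was 2.14 ± 0.17 (SE), a 4.41-fold higher level (adjusted p = 1.14e-05).

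Rps6, the small subunit protein that S6 kinases phosphorylate downstream of mTOR, read 10.59, 10.66 and 10.41 in hypertrophic ACMs, 12.69 and 12.68 in embryonic CMs and 10.83, 10.39 and 10.69 in normal ACMs. The embryonic arrays again stood alone, with a difference from normal ACMs of 2.05 ± 0.18 (adjusted p = 2.52e-05). Rps4x, the X-linked S4 protein, differed by 1.79 and Rps19, which is needed to mature the small subunit rRNA, by 1.75. Rps16 differed by 1.67 and Rps3, which lies at the mRNA entry channel, by 1.55, and embryonic and adult arrays did not overlap in any of these.

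Rpl13a, which in human cells also leaves the ribosome to silence inflammatory mRNAs, led the large subunit. It read 7.88, 7.97 and 7.16 in hypertrophic ACMs, 9.76 and 10.25 in embryonic CMs and 8.18, 7.62 and 7.82 in normal ACMs. Its difference between embryonic CMs and normal ACMs was 2.13 ± 0.29 (adjusted p = 0.000282), with a wider error than that of Rps26. Rpl12, which forms the base of the stalk, differed by 1.82, Rpl4, which lines the exit tunnel, by 1.79 and Rpl27a by 1.65, each without overlap of the groups.

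Near the other end of the called genes, Rpl5, which carries the 5S rRNA and can bind Mdm2, read 11.05, 11.69 and 11.23 in hypertrophic ACMs, 12.01 and 12.42 in embryonic CMs and 11.39, 11.71 and 11.31 in normal ACMs. Its difference from normal ACMs was 0.74 ± 0.24 (adjusted p = 0.0289), and the groups did not overlap. The call was lost under 6 of the 23 alternatives, among them the authors' normalized values and the removal of embryonic replicate 2, normal replicate 1 or normal replicate 3 (adjusted p up to 0.216). Rpl36a, Rpl7a, Rpl39, Rpl37 and the paralog Rps27l had adjusted p-values between 0.0256 and 0.0412 with differences of 0.51 to 0.76. Their calls were lost under 9 to 13 of the 23 alternatives, including the removal of embryonic replicate 2. Without that array, which leaves 1 in the embryonic group, the median difference of the members was 1.10, against -0.06 over all genes.

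For a few members at both ends of this range, the sequence around the annotated start site is shown. The windows run from 15 bases before to 15 bases after the start that RefSeq annotates on build GRCm38.p6 (base 16 is the start), in the direction of the gene, with runs of 5 or more C or T in capitals. The first 6 genes were among the largest differences and the last 3 did not pass the test in embryonic CMs.
Rps26: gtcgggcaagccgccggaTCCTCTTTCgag
Rpl13a: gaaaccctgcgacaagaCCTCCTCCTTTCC
Rps6: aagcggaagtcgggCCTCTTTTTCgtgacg
Rplp0: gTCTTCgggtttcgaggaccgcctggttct
Rpl4: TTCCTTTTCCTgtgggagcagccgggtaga
Rps4x: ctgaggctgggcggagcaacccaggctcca
Rps27: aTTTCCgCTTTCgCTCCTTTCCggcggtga
Rps25: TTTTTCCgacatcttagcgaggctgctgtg
Rpl41: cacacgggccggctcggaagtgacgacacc

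In order, these windows lie on the minus strand for Rps26 (chr10:128626492-128626521), Rpl13a (chr7:45128731-45128760) and Rps6 (chr4:86857353-86857382), and on the plus strand for Rplp0 (chr5:115559452-115559481) and Rpl4 (chr9:64173372-64173401). Rps4x (chrX:102189377-102189406) and Rps27 (chr3:90213634-90213663) are on the minus strand, Rps25 (chr9:44407699-44407728) on the plus strand and Rpl41 (chr10:128549154-128549183) on the minus strand. Across or after the annotated start, pyrimidine runs were found in Rps26, Rpl13a and Rps6 and in Rps27, which did not pass. In Rplp0 and Rpl4, and in Rps25, which did not pass, the runs lay before the annotated start only. The windows of Rps4x, which was higher, and of Rpl41, which was not called, held none. Start sites were not measured in these data, so whether each mRNA begins at the annotated base was not tested.

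RefSeq sequence from 250 bases before to 50 bases after the start was at hand for 50 of the 57 members. A run of 8 or more C or T on the gene strand within 25 bases of the start was found in 48.0% of them, against 22.9% of the 7920 tested genes with sequence. The run was present in 52.5% of the 40 members with sequence that were higher in embryonic CMs and in 30% of the 10 that did not pass. The 5 letters CTTTC in the same window were found in 28.0% of the members and 6.64% of tested genes. CCGGAA, the core that ETS factors bind, was found on either strand of the 300 bases in 25 of the 50 members and 29.9% of tested genes. It was present in 18 of the 40 members that were higher and in 7 of the 10 that did not pass. GGGCGG was found in 66.0% of the members and 67.4% of tested genes. TATAAA in the 50 bases before the start was found in 2.0% and 2.32%. These are matches of letters and not sites, and some genes have more than 1 annotated start, any of which could hold the match.

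Of the stalk proteins Rplp0 was called and Rplp1 was not, and the difference between them was not tested. Rplp0, which anchors the stalk that recruits elongation factors, read 7.41, 7.44 and 7.14 in hypertrophic ACMs, 9.05 and 8.77 in embryonic CMs and 7.17, 6.80 and 7.02 in normal ACMs. The embryonic arrays were the highest by more than 1 log2 unit, and the difference from normal ACMs was 1.91 ± 0.19 (adjusted p = 4.9e-05). Rplp1, which is held by Rplp0, read 14.69, 14.93 and 14.79 in hypertrophic ACMs, 14.50 and 15.05 in embryonic CMs and 14.78, 14.73 and 14.59 in normal ACMs. The embryonic arrays spanned all the adult ones, and the difference from normal ACMs was 0.08 (95% interval -0.37 to 0.53, adjusted p = 0.769). Before normalization Rplp1 reached 34228.1 units, where the highest signals of the 8 arrays were 33979.5 to 39041.1 units, and whether it was saturated was not tested. Rplp2, the other acidic stalk protein, was not detected on any array.

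The 13 members that did not pass in embryonic CMs were Rps2, Rps20, Rps21, Rps24, Rps25, Rps27, Rpsa, Rpl21, Rpl23, Rpl41, Rplp1, Rpl7l1 and Rps19bp1. Rpl41, the smallest of the ribosomal proteins, read 14.90, 14.84 and 14.92 in hypertrophic ACMs, 14.78 and 14.96 in embryonic CMs and 14.89, 14.80 and 14.84 in normal ACMs. All 8 arrays lay within a narrow band, and the difference between embryonic CMs and normal ACMs was 0.02 (95% interval -0.33 to 0.37). Its signals before normalization, 28301.3 to 32424.5 units, also lay near the highest of the arrays. For Rps27 the difference was 0.11 (-0.30 to 0.51) and for Rps24 0.12 (-0.24 to 0.49). These hold for the bead sequence used for each gene. In Rps24, Rpl23 and Rpl21 another bead sequence was higher in embryonic CMs, as described with the genes that had several.

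Rps25 was less well measured. It read 10.42, 10.65 and 10.84 in hypertrophic ACMs, 9.86 and 10.79 in embryonic CMs and 10.48, 10.52 and 9.93 in normal ACMs. Its difference of 0.01 had an interval of -0.66 to 0.69, since the embryonic arrays lay at the bottom and near the top of all values. Rpsa, the laminin receptor homolog of the small subunit, was detected on 1 of 3 hypertrophic, 1 of 2 embryonic and 0 of 3 normal arrays, so no fold is given for it.

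In Rps2 and Rps21 both embryonic arrays lay above all normal ones without passing the test. Rps2 read 13.41, 12.80 and 12.50 in hypertrophic ACMs, 14.41 and 14.61 in embryonic CMs and 14.08, 12.96 and 14.08 in normal ACMs. Normal replicate 2 was more than 1 log2 unit below the other normal arrays, and the difference of 0.80 had an interval of -0.04 to 1.65 (adjusted p = 0.107). Rps21 differed by 0.44 (-0.02 to 0.89).

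**Figure D2:**
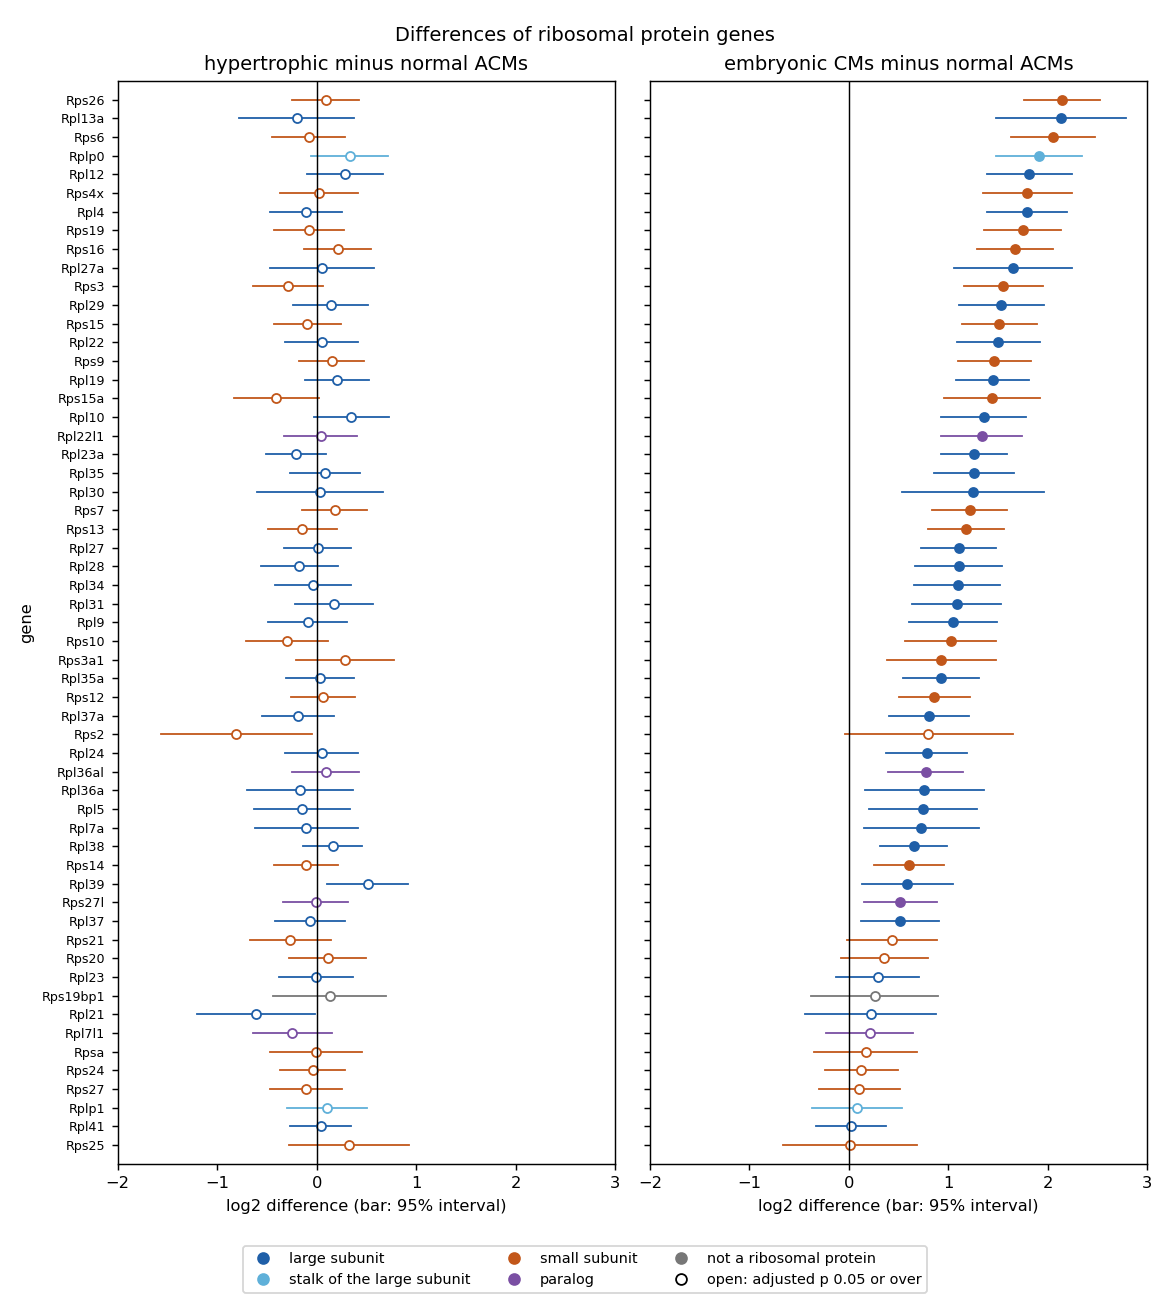
Log2 difference of each of the 57 members with its 95% interval, for hypertrophic minus normal ACMs (left) and embryonic CMs minus normal ACMs (right), in the order of the embryonic difference; filled points passed an adjusted p of 0.05. On the right 44 points are filled and all lie right of 0, from 0.51 to 2.14, and on the left none is filled and the points lie between -0.81 and 0.51.

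Paralogs are related copies of a ribosomal protein, some of which can take its place. In mouse cells the Rpl22 protein is known to repress the mRNA of its paralog Rpl22l1. Here Rpl22 mRNA was higher in embryonic CMs, and Rpl22l1 mRNA was detected there alone. Rpl22 read 10.26, 10.15 and 9.90 in hypertrophic ACMs, 11.42 and 11.69 in embryonic CMs and 10.09, 9.92 and 10.14 in normal ACMs, an embryonic difference from normal ACMs of 1.5 ± 0.18 (adjusted p = 0.000154). Rpl22l1 was detected on 2 of 2 embryonic arrays (5.98 and 5.82) and on none of the 6 adult arrays, where its signal lay within background at 4.72, 4.49 and 4.60 in hypertrophic ACMs and 4.71, 4.65 and 4.33 in normal ACMs. Its level was thus at least 2.24-fold lower in hypertrophic ACMs than in embryonic CMs, and in embryonic CMs it exceeded that of normal ACMs at least 2.01-fold. The detection filter kept Rpl22l1 only through the embryonic arrays, so the direction was fixed in advance and no p-value is given. These bounds set the embryonic mean against the lowest detected signal of each adult array, or the gene's own signal where that was higher.

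Rpl36a and its intronless paralog Rpl36al differed by 0.76 and 0.77 between embryonic CMs and normal ACMs, and both were called. Rps27l, which p53 induces, differed by 0.52 ± 0.16 (adjusted p = 0.0256), whereas Rps27 differed by 0.11 and was not called. The difference between these 2 genes was not tested. Rpl7l1 differed by 0.21 (-0.23 to 0.65), and Rps19bp1, which is no ribosomal protein, by 0.26 (-0.38 to 0.90).

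For 10 members the array held several kept bead sequences, and in 5 of them (Rps24, Rpl23, Rpl38, Rpl21 and Rps19) these differed in their call. Counted over all 68 kept bead sequences of members, 51 were higher in embryonic CMs than in normal ACMs and 0 were lower, where 23.7% of the 13494 kept bead sequences were higher. The brightest bead sequence of Rps24 read 14.06, 13.89 and 14.00 in hypertrophic ACMs, 14.01 and 14.28 in embryonic CMs and 14.04, 14.01 and 14.01 in normal ACMs. The dimmer one of the same gene read 5.83, 5.98 and 5.34 in hypertrophic ACMs, 8.44 and 7.84 in embryonic CMs and 6.46, 5.78 and 5.79 in normal ACMs. The brighter sequence was level across the groups, while the dimmer one was higher in embryonic CMs by 2.13 ± 0.30 (adjusted p = 0.000326).

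Rpl23 showed the same contrast within a gene. Of its 3 bead sequences, the brightest differed by 0.29 and another by 0.17 between embryonic CMs and normal ACMs, and neither passed. The dimmest read 7.50, 8.04 and 7.17 in hypertrophic ACMs, 9.99 and 9.24 in embryonic CMs and 7.54, 7.46 and 7.34 in normal ACMs. Both embryonic arrays lay above all adult ones, with a difference from normal ACMs of 2.16 ± 0.29 (adjusted p = 0.000278). For Rpl31 the brighter and the dimmer sequence were both called, with differences of 1.08 and 2.78. The dimmer sequence of Rpl21 was higher in embryonic CMs than in normal ACMs by 1.13 (adjusted p = 0.00976). That of Rps19 differed by 0.04 and did not pass (adjusted p = 0.907).

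In Rpl38, which is needed for the translation of Hox mRNAs in mouse embryos, the brightest sequence alone differed. This sequence was higher in embryonic CMs than in normal ACMs by 0.65 ± 0.16 (adjusted p = 0.00763 over bead sequences). The second one read 9.96, 10.31 and 10.36 in hypertrophic ACMs, 9.93 and 9.26 in embryonic CMs and 10.04, 10.17 and 9.48 in normal ACMs. Its difference of -0.31 did not pass (adjusted p = 0.407). The bead sequences themselves were not analysed here, so which transcripts, paralogs or processed copies each of them matches is not known.

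**Figure D3:**
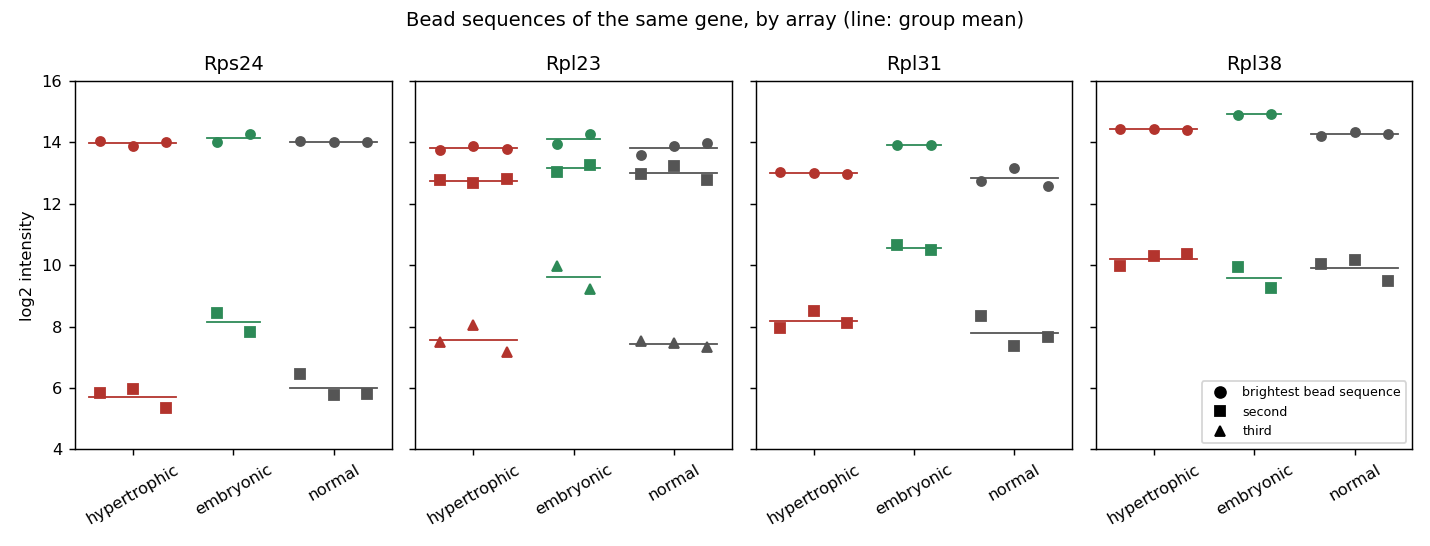
Log2 intensity of every kept bead sequence of Rps24, Rpl23, Rpl31 and Rpl38 on the hypertrophic, embryonic and normal arrays (points), with the group mean as a line and the marker shape giving the order of brightness. In Rps24 and Rpl23 the brightest sequence is level near 14 while the dimmest is about 2 log2 units higher on the embryonic arrays, and in Rpl38 the second sequence is not higher there.

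The median embryonic difference was smaller among brighter members. In the dimmest 19 of the 57 members (mean log2 intensity up to 11.1) 14 were called higher with a median difference of 1.34. Of the next 19, 17 were called with a median of 1.09, and of the brightest 19, 13 with a median of 0.80. Over the 57 members the rank correlation of mean intensity with the difference was -0.25, a description across genes that share the same arrays. The most intense member signal before normalization was that of Rpl9 on embryonic array 1, at 34329.1 units, which was also the highest of any bead sequence on that array. Rplp1 and Rpl41 reached 34228.1 and 32424.5 units. Whether such signals approach saturation was not tested.

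In hypertrophic ACMs no member passed the test against normal ACMs. Of 57 members, 0 were higher and 0 lower (limma), where 3.84% of all genes were higher and 1.83% lower (5.66% in either direction), and at an unadjusted p under 0.05 there were 3. The median difference was 0.01, against -0.02 over all genes, and the members ranged from -0.81 (Rps2) to 0.51 (Rpl39). For 55 members the 95% interval of the difference lay within 1 log2 unit on either side of 0. The exceptions were Rps2 (-1.56 to -0.05) and Rpl21 (-1.20 to -0.02).

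The members with an unadjusted p under 0.05 were Rps2, Rpl21 and Rpl39. Rpl39, a short protein of the exit tunnel, read 12.65, 12.80 and 12.83 in hypertrophic ACMs, 12.58 and 13.09 in embryonic CMs and 12.43, 12.21 and 12.10 in normal ACMs. All hypertrophic arrays lay above all normal ones, by 0.51 ± 0.18 on average (adjusted p = 0.145). Rpl21 read 4.48, 5.29 and 5.54 in hypertrophic ACMs against 5.92, 5.53 and 5.69 in normal ACMs, a difference of -0.61 ± 0.26 (adjusted p = 0.225), and it was detected on 2 of the 3 hypertrophic arrays. The second bead sequence of Rpl21 differed by -0.01.

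Rps2 in hypertrophic ACMs turned on 1 array. Its difference from normal ACMs was -0.81 ± 0.33 (adjusted p = 0.213) with all arrays and -1.17 (adjusted p = 0.0365) without normal replicate 2, the array on which Rps2 was low. Rpl23a, with 12.51, 12.45 and 12.47 in hypertrophic ACMs and 12.71, 12.67 and 12.68 in normal ACMs, had the tightest replicates. Its difference of -0.21 did not pass (adjusted p = 0.414), although it did with the authors' normalized values (adjusted p = 0.0259).

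Hypertrophic and normal arrays did not overlap in 10 members. Rps9, Rps16, Rpl10, Rpl19, Rpl38 and Rpl39 lay higher in hypertrophic ACMs, and Rps3, Rps15a, Rps21 and Rpl23a lay lower. Over all genes 12.3% lay higher without overlap and 13% lower, so that 6 and 4 of 57 were no more than these shares. Rpl10, a protein that joins the large subunit late, read 13.08, 13.06 and 13.11 in hypertrophic ACMs against 12.94, 12.79 and 12.47 in normal ACMs, a difference of 0.35 ± 0.17 (adjusted p = 0.285). Rps15a read 5.96, 5.48 and 5.97 in hypertrophic ACMs against 6.24, 6.17 and 6.21 in normal ACMs, a difference of -0.41 ± 0.19 (adjusted p = 0.265).

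Set against embryonic CMs, hypertrophic ACMs had 45 of 57 members lower and 0 higher, where 23.8% of all genes were lower and 19.7% higher. The median difference was -1.04, against -0.02 over all genes, and in 49 members the hypertrophic arrays lay below both embryonic ones and in 0 above them, against 34.9% and 30.9% of all genes. This comparison uses the same embryonic arrays as the one with normal ACMs, and each is given with its own values. Rpl22l1, which the detection filter kept only through the embryonic arrays, is among the 45 and the 49. The difference between hypertrophic ACMs and embryonic CMs was -2.33 for Rpl13a, -2.13 for Rps6, -2.05 for Rps26 and -1.90 for Rpl4. Rps2 was also lower (-1.61, adjusted p = 0.00717), as were Rps21 (-0.70, adjusted p = 0.0195) and Rpl21 (-0.83, adjusted p = 0.0452). Rpl39, whose groups overlapped here, differed by -0.08 (adjusted p = 0.794), and Rps3a1 by -0.65 (adjusted p = 0.0576).

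Genes that work with the ribosomal proteins were read from lists of textbook members. Fau, a ribosomal protein of the small subunit that is made as a fusion with a ubiquitin-like protein, read 11.89, 11.86 and 11.94 in hypertrophic ACMs, 13.50 and 13.34 in embryonic CMs and 11.62, 11.78 and 11.80 in normal ACMs. Both embryonic arrays were higher than all others, with a difference from normal ACMs of 1.69 ± 0.16 (adjusted p = 3.26e-05). Of 16 other genes with TOP mRNAs, 8 were higher in embryonic CMs and 0 lower, with a median of 0.49. Over all genes tested 26.2% were higher and 22.7% lower. Pabpc1, the poly(A)-binding protein, differed by 2.88, Hnrnpa1, a splicing factor, by 2.29, Npm1, a nucleolar chaperone, by 1.55 and Eef1b2, an elongation factor subunit, by 1.08.

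Genes for ribosome assembly are set beside all genes tested, of which 26.2% were higher and 22.7% lower in embryonic CMs, and no test was made between the lists. Of 13 genes for snoRNP proteins and rRNA modification, 8 were higher in embryonic CMs than in normal ACMs and 0 lower (median 0.78), with Fbl, the rRNA methyltransferase, at 1.84, Nop58 at 1.49 and Gar1 and Nhp2 at 1.45 each. Of 10 genes for RNA polymerase I and its factors, 2 were higher (Taf1d by 2.14 and Polr1c by 0.73) and 1 was lower (Polr1a, the catalytic subunit, by -0.59), with a median of -0.05. For large subunit assembly 10 of 33 genes were higher and 2 lower (median 0.27), among them Gnl3 at 1.03 and Ddx24 at -1.17. For small subunit assembly 3 of 21 were higher and 2 lower (median -0.14), with Imp4 at 1.20. Of 5 nucleolar structure genes, Npm1 and Ncl were higher.

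In hypertrophic ACMs 2 genes of these lists were called against normal ACMs, where 5.66% of all genes tested were called. Eif6, which keeps the subunits apart until the large one is mature, was higher by 0.64 ± 0.15 (adjusted p = 0.0411), and Bms1, a small subunit assembly GTPase, was lower (log2 difference -0.996, adjusted p = 0.0444). Bms1 was near background there, at 4.31, 5.07 and 4.30 in hypertrophic ACMs and 5.79, 5.53 and 5.35 in normal ACMs. With scaling to the array median in place of quantile normalization neither list had a call.

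Of 15 genes that control ribosomal protein mRNAs or growth signalling, 4 were higher in embryonic CMs and 1 was lower. Over all genes tested 26.2% were higher and 22.7% lower, so that 4 of 15 was near the share of all genes. Eif4ebp1, the repressor of cap-dependent translation that mTOR inactivates, read 9.87, 9.69 and 10.30 in hypertrophic ACMs, 10.94 and 10.53 in embryonic CMs and 9.32, 9.23 and 8.90 in normal ACMs. Hypertrophic arrays lay between the other groups without overlap. The difference from normal ACMs was 1.58 ± 0.24 in embryonic CMs (adjusted p = 0.000523) and 0.80 ± 0.21 in hypertrophic ACMs (adjusted p = 0.0638). Zfp36l1, which degrades AU-rich mRNAs, differed by 1.21 and Rheb, the activator of mTOR, by 0.63 in embryonic CMs. Myc, a driver of ribosome synthesis, was detected on both embryonic arrays and on no adult array. Embryonic CMs thus exceeded normal ACMs at least 1.19-fold. The detection filter kept Myc only through the embryonic arrays, so its direction was fixed in advance and no p-value is given. Mdm2, the p53 ligase that free Rpl5 restrains, was lower (-0.89, adjusted p = 0.025). With the authors' normalized values, and with arrays scaled to their median, 0 genes of the list were called lower.

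The ribosomes of mitochondria are built from other nuclear genes (Mrpl and Mrps) and moved apart from the cytosolic set. Of 72 mitochondrial ribosomal protein genes, 0 were higher and 43 lower in embryonic CMs than in normal ACMs, with a median of -0.64, beside 44 higher and 0 lower of the 57 cytosolic members with a median of 1.05. Over all genes tested 26.2% were higher and 22.7% lower. In hypertrophic ACMs against normal ACMs 0 of the 72 were higher and 3 lower (median -0.26), where 3.84% of all genes tested were higher and 1.83% lower. With arrays scaled to their median the mitochondrial median in embryonic CMs was 0.01, which was 0.51 below the median of all genes in that scaling. There 4 of the 72 genes were higher and 17 lower, where 46.5% of all genes tested were higher and 11.4% lower.

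**Figure D4:**
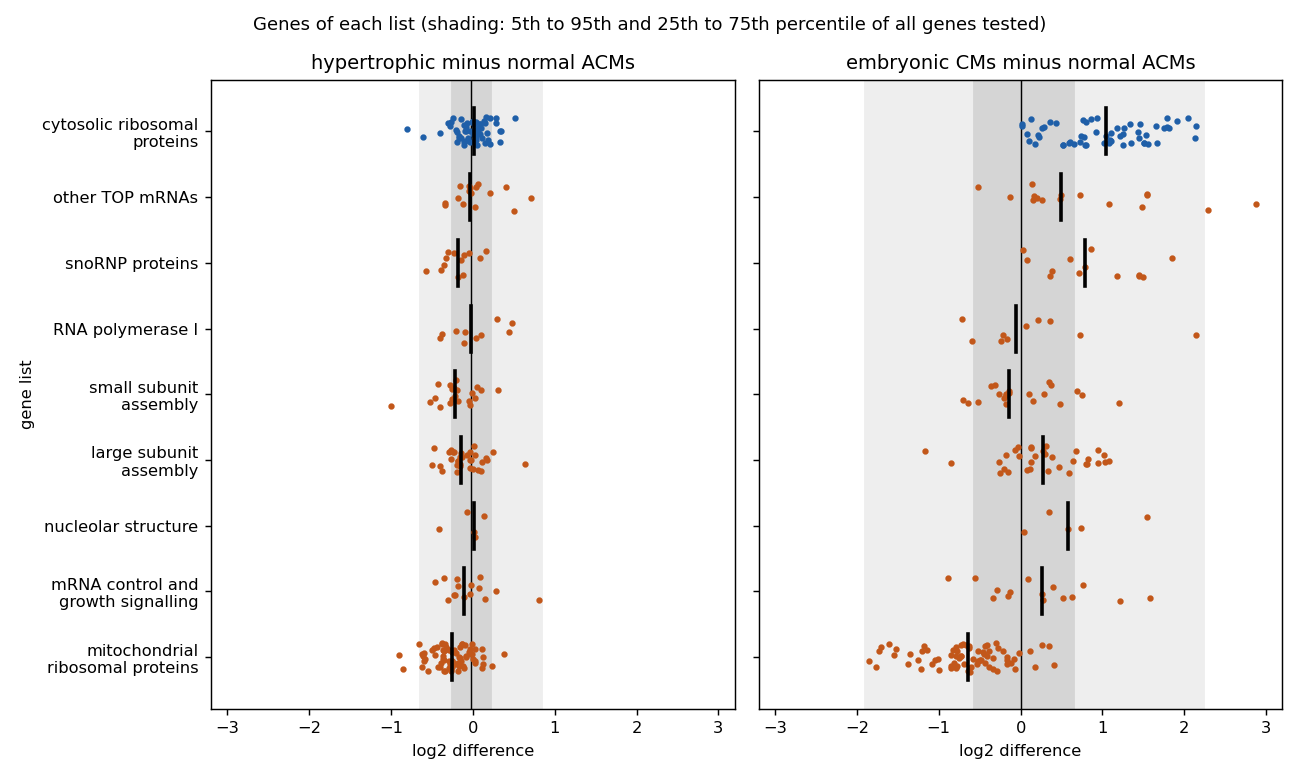
Log2 difference of each gene of 9 lists (points) for hypertrophic minus normal ACMs (left) and embryonic CMs minus normal ACMs (right), with the list median as a bar and, shaded, the middle of all 9803 genes tested. On the right the cytosolic ribosomal proteins centre on 1.05 and the mitochondrial ones on -0.64, and on the left every list centres between -0.26 and 0.01.

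The scaling of the arrays sets the zero of all these differences. Quantile normalization gives each array the same distribution. With arrays scaled to their median, the median of all genes in embryonic CMs against normal ACMs was 0.52, and 4561 genes were higher and 1117 lower, against 2573 and 2226 with quantile normalization. The ribosomal proteins then had 43 members higher and 0 lower with a median of 1.18, which was 0.66 above that of all genes, and 46 of 57 lay above it. The median of the small subunit assembly list changed its sign with this scaling (0.78, with 15 of 21 higher), as did that of the RNA polymerase I list (0.53, with 5 of 10 higher). Large subunit assembly then had 26 of 33 genes higher and 0 lower (median 1.04), and snoRNP proteins and rRNA modification 12 of 13 higher (median 1.65).

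Markers of other cell types moved with the embryonic group, in which 26.2% of all genes tested were higher and 22.7% lower than in normal ACMs. Of 5 erythroid markers 4 were higher in embryonic CMs than in normal ACMs, led by Hba-a1 with 15.02 and 15.01 in embryonic CMs and 6.53, 7.05 and 10.30 in normal ACMs, and the summed signal of the list was 33500 and 33600 in embryonic CMs against 116 to 1260 in normal ACMs. Among endothelial markers, 7 of 10 were higher and Robo4 was lower, with summed signals of 6990 to 8900 in embryonic CMs and 2650 to 3980 in normal ACMs. Of 8 fibroblast markers 6 were higher, with 4750 to 5430 in embryonic CMs and 1360 to 2960 in normal ACMs. Of 8 epicardial markers 5 were higher, of 7 smooth muscle markers 2 were higher and 2 lower, and of 5 leukocyte markers 0 passed. The erythroid Slc4a1 and the epicardial Krt19 were detected on embryonic arrays alone and were kept only through them. Of 9 cardiomyocyte markers 6 were lower, with the largest differences in Tnni3 (-2.18) and Myh6 (-1.95), and 3 did not pass. The differences nearest 0 were those of Actn2 (0.03), Myl2 (-0.16) and Tnnc1 (-0.20). The part of these cells in the ribosomal protein difference was not tested.

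In hypertrophic ACMs 7 of 8 fibroblast markers were higher than in normal ACMs, and 3 of 8 with the authors' normalized values. Over all genes tested 3.84% were higher and 1.83% lower, and 2.63% and 1.53% with the authors' normalized values. Against embryonic CMs 0 of 8 fibroblast markers were higher and 1 was lower in hypertrophic ACMs, with a median difference of 0.25. In that comparison 19.7% of all genes tested were higher and 23.8% lower. The erythroid sum was 106, 3370 and 426 on hypertrophic arrays 1, 2 and 3. Of 10 endothelial markers 2 were higher in hypertrophic than in normal ACMs (Plvap and Vwf), and 0 of 5 leukocyte markers passed. Of 8 epicardial markers 1 was higher, and of 7 smooth muscle markers 1 was higher and 1 lower. Of 9 cardiomyocyte markers 0 passed. The part of these cell types in the hypertrophic values of ribosomal proteins was not tested.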

How the data were processed

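RNA of hypertrophic ACMs (3 arrays), embryonic CMs (2) and normal ACMs (3) was labelled and hybridized by the authors to Illumina MouseRef-8 v2.0 BeadChips. The authors deposited a mean bead intensity per bead sequence on a linear scale, not yet background-subtracted or normalized. A detection p-value, also deposited per bead sequence, compares it with the negative-control beads on that array. Intensities after GenomeStudio's background subtraction and quantile normalization by the authors, whose settings are not given in the sources used here, served as an alternative. The submitters' processing notes name GenomeStudio version 2011.

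With limma 3.58.1 in R 4.3.3, neqc corrected the background from the detection p-values (offset 16) and put log2 values on 1 common distribution by quantile normalization. Of 25697 bead sequences, 1719 without a gene symbol were left out and 23978 had 1 each. RefSeq held the Entrez identifiers of 23962 of these and changed 0 symbols. A bead sequence was kept if at least 2 of 8 arrays detected it at p under 0.05, and the brightest stood for its gene. Symbols chose 64 members with 82 bead sequences, of which 68 were kept. The 3 groups entered 1 fit (lmFit, contrasts.fit, eBayes) with 3 comparisons and no covariate. Intervals are 95% intervals of the moderated fit.

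The members, gene lists and tests were chosen with earlier results of these data known. Named genes were the 10 largest differences per comparison and direction among called members without overlap of the groups, members with several bead sequences that differed in call, paralogs, stalk proteins, Rpsa, Rps6, Rpl5 and members that did not pass; others were named after their values were seen. Of the rule's genes, Rpl11, Rps27a, Rpl7, Rpl26, Rpl10l, Rps4l and Rpl26l1 were not analysed here. Start-site sequences are from RefSeq (GRCm38.p6).

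No pairing of the samples by replicate number was seen, which groups of 2 or 3 arrays cannot settle. Deviations from the group means correlated at -0.10 to 0.13 over 7 same-numbered pairs and at -0.13 to 0.10 over 14 others. Alternatives covered background, offset, normalization, the authors' values, filters, summaries of bead sequences, variance moderation, array weights, groups fitted, the replicate block, thresholds and each array left out. Which arrays shared a chip was not known here, and precision is limited by how few arrays there were. Normalization, filter and fit were also run on simulated arrays for embryonic CMs against normal ACMs only. Changes were placed in bead sequences detected on all 8 arrays. Of 78 simulated log2 changes of 1, 51.3% were recovered, and of 76 changes of 2, 96.1%. Of 121 calls 8 were wrong. Python 3.11.15, pandas 2.3.3 and matplotlib 3.10.9 made the figures.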

Additional observations from a re-analysis of the deposited data

How the results depend on the processing

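Over 23 alternatives 0 members were called lower in embryonic CMs than in normal ACMs and 0 were called higher in hypertrophic ACMs than in normal ACMs. Over all genes the shares called in these directions were 11.4 to 33% and 1.41 to 4.82%. The number called higher in embryonic CMs was 30 to 45. It was 30 with a difference beyond 1 (17.1% of all genes) and 36 at an adjusted p under 0.01 (19.3%). It was 45 with the mean of the bead sequences of a gene (25.8%) and 43 with scaling to the array median (46.5%). Leaving out 1 normal or hypertrophic array gave 38 to 43, where 24.7 to 27.1% of all genes were higher. Leaving out an embryonic array left 1 in that group, with member medians of 1.00 (without replicate 1) and 1.10 (without replicate 2). Without a detection filter 42 of 64 members and 15.1% of all genes were higher, with a member median of 0.89. With the authors' normalized values 1 member (Rpl23a) was lower in hypertrophic ACMs than in normal ACMs, where 1.53% of all genes were lower. Leaving out 1 normal or hypertrophic array gave 0 to 1. The 1 was Rps2 without normal replicate 2, where 1.87% of all genes were lower. Hypertrophic ACMs against embryonic CMs had a median of -1.26 with scaling to the array median. With the replicate number as a block, 39 members were higher in embryonic CMs than in normal ACMs, where 24.3% of all genes were. In that fit 42 were lower in hypertrophic ACMs than in embryonic CMs (21.7% of all genes). Between hypertrophic and normal ACMs 0 members were called, where 3.4% of all genes were higher and 1.24% lower. An alternative chosen after seeing the data took the dimmest bead sequence of each gene. It gave 45 members and 22.5% of all genes higher in embryonic CMs. The difference of Rpl38 was then -0.31 (adjusted p = 0.419). The causes of these changes were not tested. Signal over background limits Rpsa, Rpl21 and Rpl22l1, which were not detected on all arrays.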
